A study of Mus musculus with 8 samples.

Results

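The 9 genes described here carry the insulin signal from the cell surface to Akt and its target GSK3. They were chosen by name as the rows called Insr, Irs1, Irs2, Pik3ca, Pik3r1, Pdpk1, Akt1, Akt2 and Gsk3b. Each name matched 1 row in both deposited tables, out of 52338 genes listed in the Re table and 52139 in the GBC table. RNA was sequenced from 8 libraries labelled as wild-type C2C12, an immortalised mouse myoblast line. The treatments were GBC, which stands for ginseng berries concentrate, and Re, a ginsenoside. One table holds 3 Re libraries and 3 DMSO libraries, DMSO being the solvent control. The other holds 1 GBC library and 1 DMSO library of its own. No dose or treatment time is known from the labels. They also do not say whether libraries of a group came from separate cultures, so p-values measure only the spread between these libraries.

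Insulin binds a receptor tyrosine kinase, which phosphorylates IRS adaptor proteins. These recruit phosphatidylinositol 3-kinase (PI3K), an enzyme made of a catalytic and a regulatory subunit, and its lipid product brings the kinase Akt to the membrane. There PDK1, the product of Pdpk1, phosphorylates Akt, and active Akt phosphorylates and inhibits GSK3, which lets glycogen synthase work. In skeletal muscle this route controls glucose uptake, glycogen storage and protein synthesis. The signal travels by phosphorylation, which transcript levels do not measure.

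Values are TPM, a gene's share of all transcripts scaled for gene length, deposited as log2(TPM + 1). Since TPM holds no read depth, depth is unknown for all 8 libraries, and no value has a counting interval. The listed TPM summed to 704657 to 743269 in the Re libraries and 642180 to 716589 in their DMSO libraries, and to 479938 in the GBC library and 403442 in its DMSO library. Of 6 myoblast markers, 6 were at a mean of 1 TPM or more in the Re and in the DMSO libraries of the Re table, with summed levels of 202.6 to 215.7 TPM in Re and 201.4 to 221.8 TPM in DMSO. In the GBC table the same 6 markers summed to 1.67 TPM in the GBC library and 1.98 TPM in the DMSO library. There the muscle determination factors Myod1 and Myf5 and the M-cadherin gene Cdh15 were listed at 0 in both, and Des, of muscle intermediate filaments, was the 1 marker above 1 TPM. Markers of fibroblasts or mesenchymal cells, 5 genes, summed to 90.5 TPM in GBC and 81.35 TPM in its DMSO library. In the Re table they summed to 14.8 to 18.9 TPM in Re and 15.6 to 16.2 TPM in DMSO. Of the 5, 3 reached 1 TPM in GBC and in its DMSO library, namely Ly6a, Thy1 and Pdgfra. Ly6a alone was at 58.45 TPM in GBC and 51.52 TPM in that DMSO library. Dcn and Lum were near 0, at 0.06 and 0.02 TPM in GBC and 0.19 and 0.04 TPM in DMSO. Mean Dcn was 0.15 TPM in the Re libraries and 0.44 TPM in their DMSO libraries. The libraries of the GBC table thus lack the markers of the labelled cell type, and they were kept apart from the Re table throughout. In the Re table Acta1 was the 1 of 6 markers of differentiated muscle above 1 TPM, and Myog was listed at 0 in all 3 Re libraries. In each group Lpl was the 1 of 4 adipocyte markers at 1 TPM or more, and macrophage markers summed to 0.82 to 2.80 TPM over the 8 libraries.

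In GENCODE M21 on GRCm38 the genes lie on chromosomes 8 (Insr and Irs2), 1 (Irs1), 3 (Pik3ca), 13 (Pik3r1), 17 (Pdpk1), 12 (Akt1), 7 (Akt2) and 16 (Gsk3b). In the Re table they covered a wide range of levels. Akt1 stood first at a mean of 103.9 TPM over the 6 libraries, above 92.65% of the 11967 genes whose mean reached 1 TPM. Akt2 followed at 31.5 TPM, and Gsk3b and Pdpk1 at 22.6 and 21.9 TPM. Pik3ca, Irs1 and Pik3r1 lay close together at 13.6, 11.4 and 10.8 TPM, Insr was at 5.31 TPM, and Irs2 was lowest at 2.44 TPM, above 11.07% of genes. Neighbours in this order whose library ranges overlapped were Gsk3b and Pdpk1, Pik3ca and Irs1, and Irs1 and Pik3r1. For the other 5 neighbouring pairs the lowest library of the higher gene lay above the highest library of the lower gene, in 6 of 6 libraries.

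**Figure D1:**
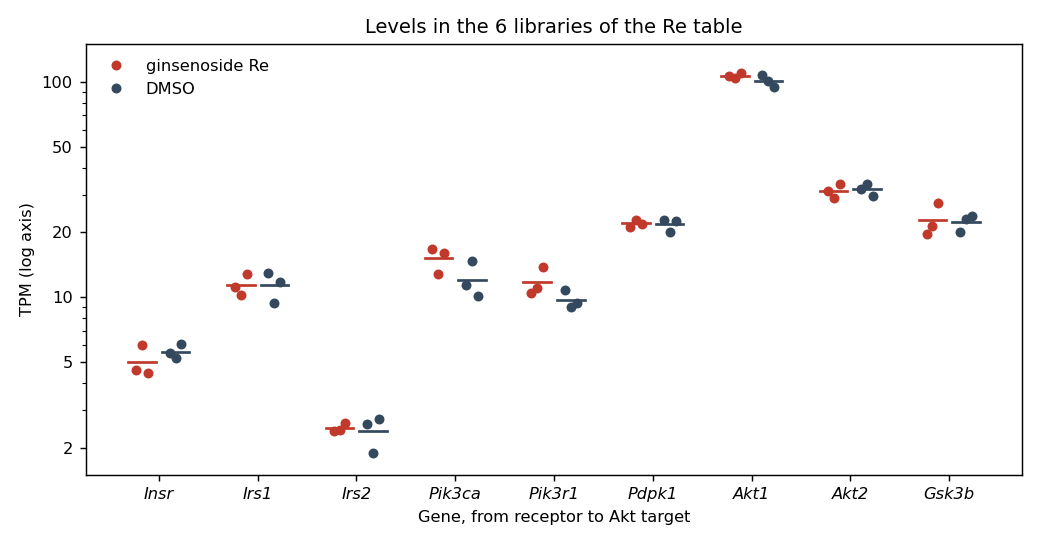
Level of each gene in TPM on a log axis, in 3 ginsenoside Re libraries (red) and 3 DMSO libraries (dark blue); points are libraries and bars are group means. Akt1 sits near 100 TPM and Irs2 near 2.4 TPM, and for each of the 9 genes the Re and DMSO points overlap.

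None of the 9 genes differed between Re and DMSO beyond the spread of the libraries. In such bulk RNA a lower level in each cell and fewer cells with the transcript cannot be told apart. In limma with Benjamini-Hochberg adjustment over all genes, 0 of 9 members had an adjusted p under 0.05, where 0 of 11967 tested genes did, or 0%. The smallest adjusted p among the members was 0.687. Unadjusted p-values under 0.05 were found for 0 members and 745 genes, 6.23% of those tested, and limma without trend or with robust variances also called 0 genes. In 0 of the 9 genes did the 3 Re libraries lie apart from the 3 DMSO libraries, which happened in 15% of all tested genes.

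Insr, the insulin receptor, was at 4.59, 6.0 and 4.45 TPM in the Re libraries, against 5.50, 5.24 and 6.05 TPM in the DMSO libraries. Re replicates 1 and 3 lay below all DMSO libraries, while Re replicate 2 lay among them. Means were 5.01 ± 0.857 TPM in Re and 5.60 ± 0.414 TPM in DMSO (SD, n = 3 each). The difference on the log2(TPM + 1) scale was -0.14, with a 95% confidence interval of -0.47 to 0.19 (limma, adjusted p = 0.736). Of the 9 genes Insr had the most negative difference, and 7.69% of all tested genes had a lower one.

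Among the adaptors, Irs1 was the abundant one in this table. Irs1 was at 11.2, 10.3 and 12.8 TPM in Re and at 12.9, 9.40 and 11.8 TPM in DMSO. The 2 groups had nearly the same mean, 11.4 ± 1.26 TPM in Re and 11.4 ± 1.80 TPM in DMSO (SD, n = 3 each), and differed by 0.01, the interval running from -0.32 to 0.34. Irs2, the other main adaptor of the insulin receptor, was at 2.40, 2.42 and 2.60 TPM in Re and at 2.59, 1.90 and 2.73 TPM in DMSO. In TPM, DMSO replicate 2 was lowest of the 6 libraries for both adaptors. It also had the lowest sum of listed TPM of the 6, at 642180. Among the DMSO libraries it was lowest for Insr, Pik3r1 and Pdpk1 too, but highest for Pik3ca and Akt2. Akt1 and Gsk3b lay in between, and a link to the sum was not tested. The difference for Irs2 was 0.04, with an interval of -0.34 to 0.41. Both had adjusted p-values above 0.9 in limma, 0.977 for Irs1 and 0.942 for Irs2.

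The promoter windows of these adaptors are shown because Irs1 and Irs2 were the 1 pair of related genes, of 6 compared, whose order differed between the tables. RefSeq's GRCm38.p6 table gave 14 windows of 300 bases, from 250 before to 50 after a start site, for 8 of the 9 genes, with no entry for Insr. The Irs1 window is chr1:82291390-82291689 and the Irs2 window chr8:11008880-11009179, both on the minus strand and printed 5′ to 3′. Capitals mark CACGTG, an E-box, and TGTTTTG, a core of insulin response elements, each searched on both strands after the windows had been read.
Irs1: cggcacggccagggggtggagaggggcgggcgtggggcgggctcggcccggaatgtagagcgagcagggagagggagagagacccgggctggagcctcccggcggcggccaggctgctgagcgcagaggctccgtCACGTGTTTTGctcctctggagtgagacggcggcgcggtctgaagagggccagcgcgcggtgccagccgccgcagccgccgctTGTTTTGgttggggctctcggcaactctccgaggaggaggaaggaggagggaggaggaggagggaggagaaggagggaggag
Irs2: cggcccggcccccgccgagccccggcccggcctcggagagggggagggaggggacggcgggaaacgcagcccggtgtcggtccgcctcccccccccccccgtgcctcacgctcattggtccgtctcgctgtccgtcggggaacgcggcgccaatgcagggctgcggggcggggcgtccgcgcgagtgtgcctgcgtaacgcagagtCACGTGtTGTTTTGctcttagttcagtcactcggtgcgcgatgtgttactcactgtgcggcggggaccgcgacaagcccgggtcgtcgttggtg
In Irs1 the E-box lies at bases 136 to 141 of the window, the first TGTTTTG starts inside it at base 140, and a second lies at bases 219 to 225. In Irs2 the E-box lies at bases 207 to 212 and TGTTTTG at bases 214 to 220. CACGTG was found in 7.15% of all 32851 windows, TGTTTTG in 6.28% and both together in 0.408%. Among the 14 windows of the members, these 2 were the ones with either motif. TGTTTAC, which is 1 form of FoxO site and not the only one, was in neither window and in 3.65% of all windows. CANNTG, the general E-box, was in 72.3% of all windows, and its single match in each of the 2 windows is the CACGTG itself. The Irs1 and Irs2 windows held 71.3% and 72% G and C, beside a median of 52.7% over all windows. The shares over all windows are not matched for this. Since the 2 windows had been read first, those shares do not measure how rare the matches are. Such matches describe letters and not binding.

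Both PI3K subunit genes had the largest positive differences of the set. Pik3ca, which encodes the catalytic subunit p110 alpha, was at 16.7, 12.8 and 16.1 TPM in Re, against 11.4, 14.7 and 10.1 TPM in DMSO. Re replicates 1 and 3 lay above all DMSO libraries, while Re replicate 2 lay below DMSO replicate 2. Means were 15.2 ± 2.08 TPM in Re and 12.1 ± 2.36 TPM in DMSO (SD, n = 3 each). The difference was 0.32, and its interval ran from -0.05 to 0.68 (limma, adjusted p = 0.687). With 1 library left out the difference ran from 0.21 without DMSO replicate 3 to 0.46 without DMSO replicate 2, and no omission brought limma's adjusted p under 0.05. Pik3r1, which encodes the regulatory subunits p85 alpha, p55 alpha and p50 alpha, was at 10.5, 11.1 and 13.8 TPM in Re and at 10.9, 9.01 and 9.42 TPM in DMSO. Re replicate 3 was the highest library, and DMSO replicate 1 lay above Re replicate 1. The difference was 0.24, with an interval of -0.07 to 0.55 and the same adjusted p of 0.687. Without Re replicate 3 it was 0.13. Of all tested genes 92.1% had a smaller difference than Pik3ca and 84.9% a smaller one than Pik3r1.

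Pdpk1 and the Akt genes had the smallest spread between libraries. Pdpk1 was at 21.1, 23.0 and 22.0 TPM in Re and at 22.9, 20.1 and 22.6 TPM in DMSO, and differed by 0.01, with an interval from -0.21 to 0.23. Akt1, the more widely expressed Akt gene, was at 106.1, 104.8 and 109.7 TPM in Re, against 108.1, 100.5 and 94.4 TPM in DMSO. Means were 106.9 ± 2.54 TPM in Re and 101.0 ± 6.89 TPM in DMSO (SD, n = 3 each), and DMSO replicate 1 reached the Re range. The difference was 0.08, with an interval of -0.11 to 0.28 (limma, adjusted p = 0.736). Akt2, the isoform tied to insulin-driven glucose uptake in muscle and fat, was at 31.3, 28.9 and 33.5 TPM in Re and at 32.0, 33.5 and 29.7 TPM in DMSO. The groups covered nearly the same range, and the difference was -0.02 with an interval of -0.25 to 0.20.

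Gsk3b, a kinase that Akt inhibits, was at 19.7, 21.5 and 27.3 TPM in Re, against 20.1, 23.2 and 23.96 TPM in DMSO. The Re libraries held both the lowest and the highest value. The difference was 0.02, with an interval of -0.30 to 0.34 (limma, adjusted p = 0.964).

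The members' median lay below the general shift of the table. The median difference over all tested genes was 0.105, and 77.5% of them were above 0 in Re. The median over the 9 members was 0.02, 7 were above 0 and 2, Pik3ca and Pik3r1, were above the median of all genes. After median-of-ratios scaling, where the median of all genes was 0.00046, the members' median was -0.091, and Irs1, Irs2, Pdpk1, Akt1 and Gsk3b changed sign. Pik3ca and Pik3r1 were then at 0.21 and 0.14, and Insr at -0.24. The intervals as deposited reached from -0.47 for Insr to 0.68 for Pik3ca, so a difference of 1 in either direction on this scale lies outside each of them.

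**Figure D2:**
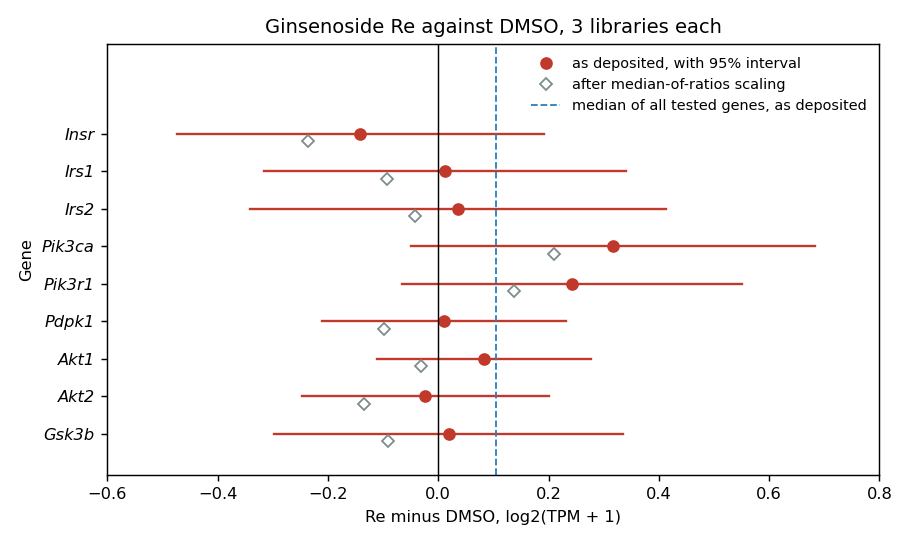
Re minus DMSO on the log2(TPM + 1) scale for each gene, with the 95% confidence interval from limma (3 libraries per group), and open diamonds for the difference after median-of-ratios scaling. Each interval crosses 0, from 0.32 for Pik3ca to -0.14 for Insr, and the dashed line marks the median of all tested genes at 0.105.

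Related genes were then compared with each other inside each library, a quantity in which the scaling of a library largely drops out. A measurement bias particular to a gene does not drop out and would recur in each library. The p-values below therefore concern a steady order of listed TPM and cannot decide the order of true abundance. In the Re table, 5 of 6 pairs had the same order in 6 of 6 libraries. Akt1 exceeded Akt2 by 1.69 ± 0.0915 on the log2(TPM + 1) scale (SD, n = 6; exact sign-flip permutation test, two-sided, p = 0.03125, adjusted over 6 pairs 0.0375). Irs1 exceeded Irs2 by 1.85 ± 0.0902, and Pik3ca exceeded Pik3cb, the gene of p110 beta, by 1.50 ± 0.301. Gsk3b lay below Gsk3a, its close relative, by a mean difference of -0.37 ± 0.161. Pik3r1 lay below Pik3r2, the gene of p85 beta, with a difference of -1.50 ± 0.142. For each of these 4 pairs the exact p was also 0.03125, the smallest that 6 libraries can give, and the adjusted p 0.0375. Insr lay below Igf1r, the receptor of insulin-like growth factor 1, in 5 of 6 libraries, with a difference of -0.25 ± 0.264 (exact p = 0.0625, adjusted 0.0625). Between Re and DMSO the 6 exact permutation tests gave p-values of 0.2 to 1, where 3 against 3 libraries cannot go below 0.10, and adjusted values of 0.6 to 1.

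As shares of each family's summed TPM, Irs1 held 80.96% to 83.3% of the sum of Irs1 and Irs2 over the Re table's 6 libraries. Of the catalytic subunit genes Pik3ca, Pik3cb and Pik3cd alone, Pik3ca held 61.4% to 73.6%. Pik3cb held 17.7% to 27.5%, and Pik3cd, the gene of p110 delta, 8.67% to 13.6%. Of the regulatory subunit genes Pik3r1, Pik3r2 and Pik3r3 alone, Pik3r2 held 53.2% to 60.6%, Pik3r3 21.1% to 26.7% and Pik3r1 17.7% to 20.995%. Other PI3K subunit genes were not counted in these sums. Gsk3b held 39.0% to 46.2% of the 2 Gsk3 genes, and Insr 35.5% to 50.3% of the 2 receptor genes.

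In the GBC table the adaptors had the opposite order. Irs2 was at 10.03 TPM in the GBC library and 5.34 TPM in the DMSO library, and Irs1 at 7.48 and 3.91 TPM in the same libraries. The difference of Irs1 minus Irs2 was -0.38 in GBC and -0.37 in DMSO, against 1.72 to 1.96 over the Re table's 6 libraries. Irs1 thus held 42.3% to 42.7% of the sum. The other 5 pairs had the sign of their Re table mean in both libraries. Akt1 exceeded Akt2 by 1.87 in GBC and 2.29 in DMSO, and Pik3ca exceeded Pik3cb by 1.56 in GBC and 1.87 in DMSO. The difference of Pik3r1 minus Pik3r2 was -1.36 in GBC and -1.69 in DMSO, and that of Gsk3b minus Gsk3a was -0.33 in GBC and -0.90 in DMSO. Insr minus Igf1r was -0.90 in GBC and -0.62 in DMSO. The difference between the tables was not tested, since they were made separately. It goes with the myoblast markers, which sum to at most 1.98 TPM in one table and at least 201.4 TPM in the other, and their part in it was not tested.

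**Figure D3:**
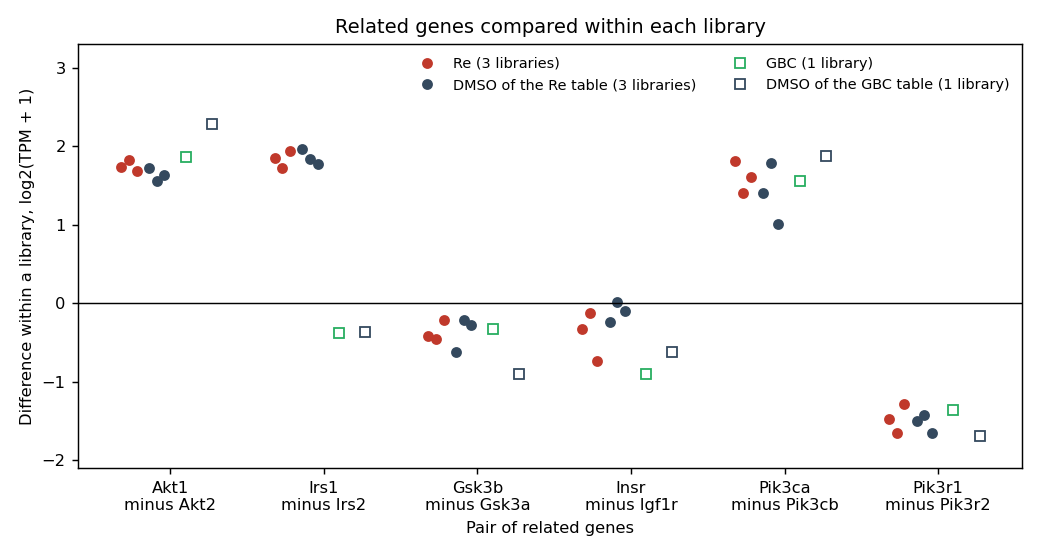
Difference between related genes within each library on the log2(TPM + 1) scale; filled circles are the Re (red) and DMSO (dark blue) libraries of the Re table, open squares the single GBC (green) and DMSO (dark blue) libraries of the other table. Irs1 minus Irs2 is between 1.72 and 1.96 in the Re table and -0.38 and -0.37 in the GBC table, while the other pairs keep their sign apart from 1 DMSO library for Insr minus Igf1r.

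Levels set across the tables are descriptions. In TPM both libraries of the GBC table lay below all 6 libraries of the Re table for 8 of the 9 genes. They lay above them for 1, Irs2, which ran from 1.90 to 2.73 TPM in the Re table. The listed TPM summed to 403442 and 479938 in the GBC table, against 642180 to 743269 in the Re table. How many of all genes lay below in this way was not counted, so the members are not set apart from other genes. With each library's listed values rescaled to fill the whole TPM total, Irs2 was at 20.9 in GBC and 13.2 in its DMSO library, against 2.96 to 3.90 in the Re table. On that scale 5 genes stayed below, namely Insr, Pdpk1, Akt1, Akt2 and Gsk3b, again without a count over all genes. Gsk3b was at 12.1 in GBC and 8.03 in DMSO, against 28.0 to 36.8 in the Re table. Pik3ca, at 21.1 in GBC and 21.2 in DMSO, lay inside its Re table range of 14.5 to 23.7. In the GBC table the order by mean TPM was Akt1, Akt2, Pdpk1, Pik3ca, Irs2, Pik3r1, Irs1, Gsk3b and Insr. The GENCODE M21 annotation has an exon of another gene on the opposite strand over Irs1 (Gm9747) and over Irs2 (9530052E02Rik), and no source here says whether counting used strand.

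Between the GBC library and its DMSO library each of the 9 genes was higher in GBC as deposited. So were 88.8% of the 10989 genes whose mean reached 1 TPM, and 88.9% of those whose mean reached 5 TPM. With 1 library per group there is no replicate check and no test. By a rule of size, a difference of at least 1 at a mean of at least 5 TPM, 0 of the 7 members at that level passed, where 5.21% of 6639 genes did, and 4.97% were past it upward. Insr and Gsk3b had means under 5 TPM. At a smaller size of 0.58, which is 1.5-fold of TPM + 1, 2 of the 7 passed, Irs1 and Irs2. Of all genes 22.1% passed it in either direction and 21.6% upward. The same size is a larger fold of TPM itself, so genes under it can still exceed 1.5-fold in TPM. After median-of-ratios scaling 0 of the 7 passed either size, beside 1.73% of genes at 1 and 8.77% at 0.58.

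The adaptors had the largest differences, 0.80 for Irs2 and 0.79 for Irs1, above those of 89.95% and 89.6% of genes at that level. Gsk3b was at 5.83 TPM in GBC and 3.24 TPM in DMSO, a difference of 0.69. Pdpk1 was at 12.6 TPM in GBC and 8.34 TPM in DMSO, and Akt2 at 13.4 TPM in GBC and 9.27 TPM in DMSO, differences of 0.54 and 0.49. Pik3r1 was at 7.26 TPM in GBC and 4.85 TPM in DMSO, a difference of 0.50. Insr was at 2.41 TPM in GBC and 1.54 TPM in DMSO, a difference of 0.42. The smallest differences were those of Pik3ca, at 10.1 TPM in GBC and 8.56 TPM in DMSO, and of Akt1, at 51.7 TPM in GBC and 49.1 TPM in DMSO, with 0.22 and 0.07.

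The members' median difference was 0.50, beside a median of 0.307 over genes whose mean reached 5 TPM and 0.32 over those whose mean reached 1 TPM. After rescaling both libraries to the same sum of listed TPM, the members' median was 0.28, and 7 of 9 were higher in GBC. Pik3ca was then at -0.01 and Akt1 at -0.17. Over genes whose mean reached 1 TPM the median was 0.114 on that scale, and 65.1% were higher. With median-of-ratios factors the members' median was 0.11, and 7 of 9 were higher. Over genes whose mean reached 1 TPM the median was then -0.066, and 42% were higher. Irs1 and Irs2 were at 0.39 each with these factors, and Pik3ca and Akt1 at -0.21 and -0.39. On each scale both adaptors had the highest differences and Akt1 the lowest, while the sign of Pik3ca and Akt1 depended on the scale.

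**Figure D4:**
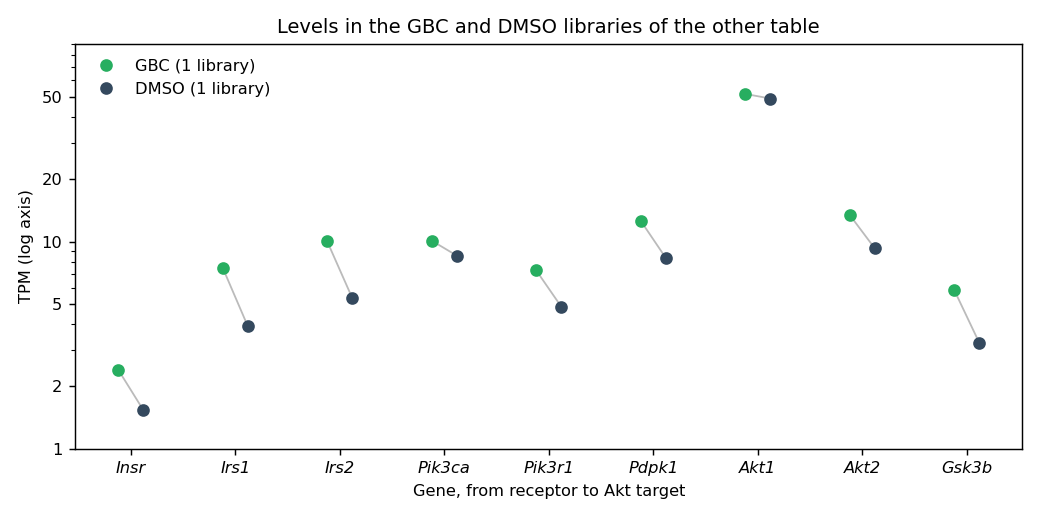
Level of each gene in TPM on a log axis in the single GBC library (green) and the single DMSO library (dark blue) of the GBC table, joined by a line. GBC is above DMSO for each of the 9 genes, from 2.41 against 1.54 TPM for Insr to 51.7 against 49.1 TPM for Akt1, and Irs2 lies above Irs1 in both libraries.

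A further 64 genes of the pathway, in 9 lists by role, gave the setting. Of these, 53 reached a mean of 1 TPM in the Re table, 35 were higher and 18 lower in Re as deposited, and 0 passed limma's adjusted threshold. After median-of-ratios scaling 26 of the 53 were higher, or 49.1%, beside 50.1% of all tested genes. At an unadjusted p under 0.05 there were 3, or 5.66%, beside 6.23% of all genes. The 3 Re libraries lay above all 3 DMSO libraries in 7, or 13.2%, beside 13.7% of all genes, and below them in 0, beside 1.27%. Among these were Sh2b2, Rictor, Tbc1d1, Ptpn2, Trib3 and Eif4ebp1. The median difference was 0.08, under the 0.105 of all genes.

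Hormone genes were scarce: 0 of the 4 ligand genes reached 1 TPM, and Ins1 was listed at 0 in all 8 libraries. Of the receptors, Igf1r differed by 0.15. Among adaptors other than Irs1 and Irs2, with 2 of 6 tested genes higher, Sh2b2, an adaptor of the insulin receptor, was at 4.53 ± 0.444 TPM in Re and 3.10 ± 0.693 TPM in DMSO (SD, n = 3 each), a difference of 0.45. Grb2, which links receptors to Ras, was at 17.6 ± 1.83 TPM in Re and 22.1 ± 7.01 TPM in DMSO, a difference of -0.28. Each of the 4 other PI3K genes in the list was above 0 as deposited and after both rescalings, with a median of 0.15 as deposited. Pik3r2 and Pik3r3 differed by 0.18 each. Rictor, a subunit of the mTORC2 complex that phosphorylates Akt, was at 12.7 ± 1.42 TPM in Re and 10.2 ± 1.29 TPM in DMSO, a difference of 0.28. Among 12 Akt substrates other than Gsk3b, 10 were higher, or 8 after median-of-ratios scaling. Tbc1d1, a regulator of glucose transporter traffic, was at 20.5 ± 0.877 TPM in Re and 16.99 ± 1.80 TPM in DMSO, a difference of 0.26. Cdkn1b, a cell cycle inhibitor, differed by 0.26 too.

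Of 15 brakes on the pathway, 7 were higher and 8 lower, with a median of -0.02, and 4 were higher after median-of-ratios scaling. Trib3, a pseudokinase that binds Akt, was at 11.5 ± 1.40 TPM in Re and 8.03 ± 1.60 TPM in DMSO (SD, n = 3 each), differing by 0.48, with an interval from 0.11 to 0.85. Ptpn2, a tyrosine phosphatase, differed by 0.16. In the mTORC1 list, 4 of 6 were higher, with 0.20 for Eif4ebp1, a translation repressor, and 0.23 for Rps6kb2, an S6 kinase. Of the glucose and glycogen list, 3 of 4 tested genes were higher as deposited and 0 after median-of-ratios scaling, with 0.07 for the glucose transporter gene Slc2a1 and 0.06 for the hexokinase gene Hk1, while Slc2a4, the insulin-responsive transporter GLUT4, was under 1 TPM in each of the 8 libraries. The adjusted p in limma was 0.687 for Sh2b2, Rictor, Tbc1d1, Cdkn1b, Trib3, Ptpn2 and Eif4ebp1, and 0.687 to 0.846 for the other genes named here from these lists.

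In the GBC table, 29 of the 64 genes had a mean of at least 5 TPM. Of these 28 were higher in GBC and 1, the adaptor gene Shc1, was lower, at -0.06. The median of the 29 was 0.36, or -0.08 after median-of-ratios scaling. Past the size rule was 1 of 29, Rptor, an mTORC1 subunit, beside 5.21% of all genes. Rptor was at 10.02 TPM in GBC and 3.93 TPM in DMSO, a difference of 1.16, which was 0.76 after median-of-ratios scaling and then under the size rule. Mdm2, a ubiquitin ligase of p53, was at 21.5 TPM in GBC and 11.3 TPM in DMSO, a difference of 0.88. Among the brakes, Inppl1, the lipid phosphatase SHIP2, was at 28.5 TPM in GBC and 18.3 TPM in DMSO. Tsc2, a brake on mTORC1, Rictor and Grb10 differed by 0.65, 0.61 and 0.53 as deposited, and by 0.22, 0.19 and 0.073 after median-of-ratios scaling. Pik3r3, Pik3r2 and Slc2a1 differed by 0.23, 0.16 and 0.19 as deposited, and by -0.17, -0.28 and -0.23 after that scaling, which turned their direction. Mdm2 and Inppl1 were then at 0.44 and 0.16.

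**Figure D5:**
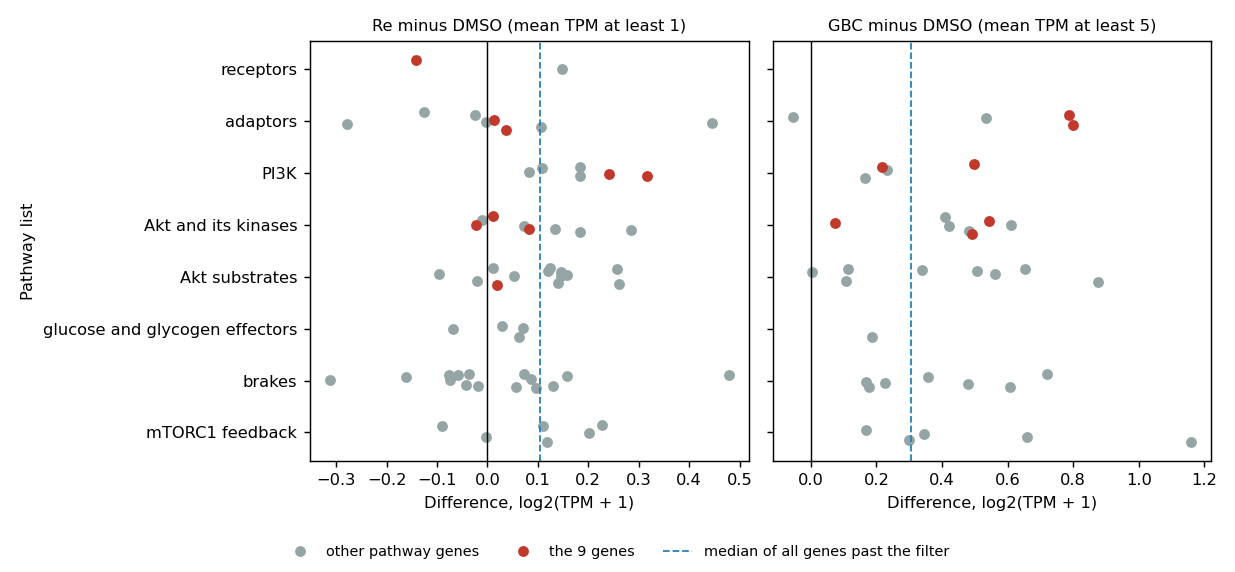
Difference on the log2(TPM + 1) scale for each pathway gene past the filter, by list, for Re minus DMSO (left) and GBC minus DMSO (right); the 9 genes are red, other pathway genes grey, and the dashed lines mark the medians of all genes, 0.105 and 0.307. On the left the adaptors Irs1 and Irs2 lie near 0 and Pik3ca and Pik3r1 to the right of the line, and on the right Irs1 and Irs2 lie near 0.8; Insr and Gsk3b are not on the right because their means were under 5 TPM.

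For each gene the nearest profile over the 8 libraries was sought among 6082 or 6083 named genes whose mean reached 5 TPM in both tables, after centring within each table. Nearness was the root-mean-square difference of log2(TPM + 1). The nearest were Aimp2 for Insr, Piezo1 for Irs1, Idh3a for Irs2, Fam234a for Pik3ca, Srsf11 for Pik3r1, Ryk for Pdpk1, Vdac2 for Akt1, Lnpep for Akt2 and Klf10 for Gsk3b. The differences ran from 0.0234 for Pdpk1 to 0.0978 for Pik3ca. Of the 9 nearest genes 0 was another member, which is no finding about the members. They were few among the candidates, and Insr, Irs2 and Gsk3b could not be returned. Insr and Gsk3b had means under 5 TPM in the GBC table, and Irs2 in the Re table.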

How the data were processed

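The deposited values are log2(TPM + 1) per Ensembl gene. Per the submitters' processing notes the authors used STAR and RSEM, and the notes name the genome builds GRCh38 and GRCm39 without saying which step used which. Their versions and settings are not stated in the notes. Back-transformed TPM lay within 2.0e-04 of a multiple of 0.01 and were rounded to it. Tests were made within a table.

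The Re test used limma 3.58.1 under R 4.3.3 (lmFit and eBayes with trend, two-sided, pseudocount 1) over genes whose mean reached 1 TPM, with Benjamini-Hochberg adjustment over all of them. This step was tried in 5 simulations of 11967 genes with the real spread and changed genes at 5 TPM or more. It recovered 43.9% of 335 genes changed by 1.5-fold, 79.7% of 335 at 2-fold and 97.6% of 330 at 4-fold. These folds were of TPM + 1. On the log2(TPM + 1) scale the change of low genes is understated. Median-of-ratios factors came from genes above 0 in every library, and the size rule kept the filter on deposited TPM. The remaining work was done in Python 3.11.15 (scipy 1.17.1, numpy 2.4.6, pandas 2.3.3), with plots from matplotlib 3.10.9. Alternatives changed the pseudocount, the filter, the scaling, the limma options, the block and the libraries used.

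All members were named. Some other genes that the rule names are not reported here. From each list of other pathway genes, up to 2 with the smallest p for Re were named, and for GBC those past the size rule or else up to 2 with the largest difference. The genes whose Re and DMSO libraries did not overlap were named after their values were seen. The members and lists were chosen with earlier results of these data known. Counts per list after rescaling were added after seeing the data.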

Additional observations from a re-analysis of the deposited data

How the results depend on the processing

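Each of the 9 members stayed past no threshold in limma under all 15 alternatives (14 for Irs2, which the filter of 5 TPM removes), with adjusted p-values of 0.367 to 0.995. Insr, Pik3ca and Pik3r1 kept their sign in each, with -0.26 to -0.07, 0.21 to 0.46 and 0.13 to 0.31. Small differences changed sign. After median-of-ratios scaling Irs1, Irs2, Pdpk1, Akt1 and Gsk3b were at -0.092, -0.043, -0.098, -0.031 and -0.091, and the members' median at -0.091. With equal sums of listed TPM Irs1, Irs2, Pdpk1 and Gsk3b were at -0.049, -0.0098, -0.053 and -0.046, and the median at -0.046. With 1 library left out, Irs1 ran from -0.11 to 0.10, Irs2 from -0.076 to 0.11, Pdpk1 from -0.046 to 0.042, Akt2 from -0.074 to 0.030 and Gsk3b from -0.11 to 0.11. Omitting DMSO replicate 2 turned the sign of Irs1, Irs2, Pdpk1 and Akt2, and omitting Re replicate 2 that of Pdpk1 and Akt2. Omitting Re replicate 3 turned Irs1 and Gsk3b, and omitting DMSO replicate 1 turned Gsk3b. Over all genes 0 were called by limma, and 0 to 7 when 1 library was left out, the count being 4 without the DMSO library numbered 1, 6 without number 2 and 0 without number 3, and 3, 1 and 7 without the Re libraries numbered 1, 2 and 3. A replicate block left 0 genes and 0 members called, with 810 genes at an unadjusted p under 0.05 beside 745 without it, and same-numbered libraries had deviations correlated at 0.16, 0.08 and 0.02. Not every library correlated best with its own number, and the labels do not say that a number marks a shared culture or day. The Re libraries are numbered 1 to 3 in their titles but 4 to 6 in their descriptions, and the title numbers were used.

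Left-out libraries kept the sign of all pairs, and with 5 libraries the exact test cannot go below 0.0625, so by construction no pair passed. The mean was then 1.67 to 1.72 for Akt1 minus Akt2, 1.82 to 1.87 for Irs1 minus Irs2, -0.40 to -0.32 for Gsk3b minus Gsk3a, 1.44 to 1.60 for Pik3ca minus Pik3cb and -1.54 to -1.47 for Pik3r1 minus Pik3r2. Insr minus Igf1r ran from -0.31 without DMSO replicate 2 to -0.16 without Re replicate 3, against -0.25 with all 6. For GBC, 346 genes passed the size rule, against 522 with a mean of at least 1 TPM, 1464 at a size of 0.58, 115 after median-of-ratios scaling and 178 with equal sums. The members past it were 2 at 0.58 and 0 in the other settings, and their median was 0.11 after median-of-ratios scaling and 0.28 with equal sums. The cause of these moves was not tested. What depth limits cannot be said, since TPM keeps none.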

Other observations

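Other genes of the pathway stood far apart between the tables. The gene Grb10, an adaptor that binds and restrains the insulin receptor, was at 71.4 TPM in the GBC library and 48.97 TPM in its DMSO library, against 0 to 0.62 TPM in the 6 libraries of the Re table. Trib2, a pseudokinase related to Trib3, was at 18.5 TPM in GBC and 14.2 TPM in DMSO, against 0.76 to 1.46 TPM in the Re table. With listed values rescaled to fill the whole TPM total, Grb10 was at 148.7 in GBC and 121.4 in DMSO, against at most 0.865 in the Re table. These 2 genes were picked after their values were seen, the difference between tables was not tested, and it goes with the near absence of myoblast markers in the GBC table.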
